A study of Rattus norvegicus with 20 samples.

Results

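Homeostatic microglia genes are the transcripts by which resting microglia, the resident macrophages of the brain, are recognised in rodent tissue. The set described here held P2ry12, P2ry13, Gpr34, Cx3cr1, Csf1r, Tmem119, Selplg, Olfml3 and Aif1. Its members were taken by symbol, and all 9 were found among the 17168 genes of each of the 2 expression tables, each averaging at least 10 counts per rat. No measured value entered the choice, although the set was proposed with earlier results of these data known.

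Microglia in healthy tissue survey their surroundings with fine processes, and their survival depends on signalling through the Csf1r receptor. Purinergic receptors guide the processes towards released nucleotides, and Cx3cr1 receives a neuronal ligand. In models of Alzheimer's disease, microglia that gather at amyloid plaques are known to lower many homeostatic transcripts and to raise a plaque-associated programme.

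The hippocampus of 20 female rats was measured at 4 months of age, with 1 mRNA library per rat. In the genotype comparison, 5 wild-type rats (WTNT) and 5 transgenic-AD rats (TGNT) all ate untreated chow. TGNT rats are of the TgF344-AD line, which carries human transgenes, among them APPsw, under the prion promoter. In the treatment comparison, all rats carried those transgenes. A separate 4 TGNT rats ate plain chow, and 6 TGTR rats received diazoxide (DZ, a potassium channel opener) at 10 mg/kg/day with dibenzoylmethane (DIB, a curcumin-like diketone) at 200 mg/kg/day in chow from day 52 of life. No treated wild-type group was analysed. Sample labels name the left hippocampus and the study's methods the right.

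Estimated counts summed to between 5848458 and 9926088 per rat in the genotype comparison and to between 9215039 and 14175594 in the treatment comparison. Values are given as RPM, reads scaled to a common library size with trimmed mean (TMM) factors within a table, and 1 read stood for 0.0705 to 0.171 RPM. RPM is not divided by transcript length, so levels are compared between rats and not between genes. App, which the transgene raises, separated the genotypes, with 1101 ± 47.5 RPM in WTNT and 2187 ± 122 RPM in TGNT rats (mean ± SD, n = 5 each). A single treated rat, TGTR 5, held 2906 RPM summed over 9 choroid plexus genes, TGTR 6 held 141 RPM, and the other 8 rats of that comparison held 3.669 to 18.5 RPM. The tissue is bulk, so fewer microglia and less RNA per microglial cell cannot be told apart.

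The 9 genes lie apart on several chromosomes, with 2 neighbouring pairs. In the GRCr8 gene table P2ry12 lies next to P2ry13, and Selplg next to Tmem119. Csf1r adjoins Pdgfrb, a pericyte receptor gene. RefSeq promoter windows (GRCr8, 250 bases before to 50 after the listed start) were held for 5 members, namely P2ry13, Olfml3, Cx3cr1, Csf1r and Gpr34. PU.1, the ETS-family factor of the macrophage lineage, binds purine-rich DNA around a GGAA core, so AGGAAG and GAGGAA were searched on both strands; the 2 motifs can overlap. The letters were chosen after the windows had been read. AGGAAG occurred in 3 of the 5 windows and in 34.5% of 33469 promoter windows. GAGGAA occurred in 2 of the 5 and in 27.6% of all windows. A single stretch of 30 bases is shown for each of the 4 members with a match, to show the letters matched in the windows given for these genes. Not printed are an AGGAAG with an overlapping GAGGAA in the Csf1r window, and another AGGAAG in the Olfml3 window. Capitals mark the motif, which in each case lies on the strand opposite to the one printed. Each stretch is read 5′ to 3′ on the gene's strand.

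Csf1r, chr18:56834272-56834301, plus strand: gacaagaacgtgTTCCTCtgttcccatccc
Gpr34, chrX:11785831-11785860, minus strand: ggagctttgggtTTCCTCctttacttcagc
Cx3cr1, chr8:128677025-128677054, minus strand: gagtggctggcaCTTCCTgcagaagtcccc
Olfml3, chr2:193935707-193935736, minus strand: ctggggtctcagCTTCCTgcagcttgctgt

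These matches are a description of letters. The window of P2ry13 held neither motif. For Csf1r, Gpr34 and Cx3cr1 the start used for the window lies 227, 804 and 1982 bases inside the gene's annotated edge, so their printed stretches lie inside the annotated gene. The Olfml3 stretch lies before the annotated gene.

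The genotype comparison asked whether the microglial transcripts differed at an age before or early in plaque formation. None of the 9 genes was called, which needed both an adjusted p under 0.05 and a 1.5-fold difference, in edgeR's quasi-likelihood test, against 0.0116% of all genes. All 9 had a higher fitted level in TGNT rats, against 52.4% of the 11357 genes averaging at least 10 counts. Their median log2 fold change was 0.11, beside 0.0063 over those genes. Selplg alone had an unadjusted p under 0.05, which 3.23% of all genes had, and DESeq2 also gave 0 members called and 1 at that level. The groups overlapped in RPM for all 9 members, as they did for all but 0.652% of genes.

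**Figure D1:**
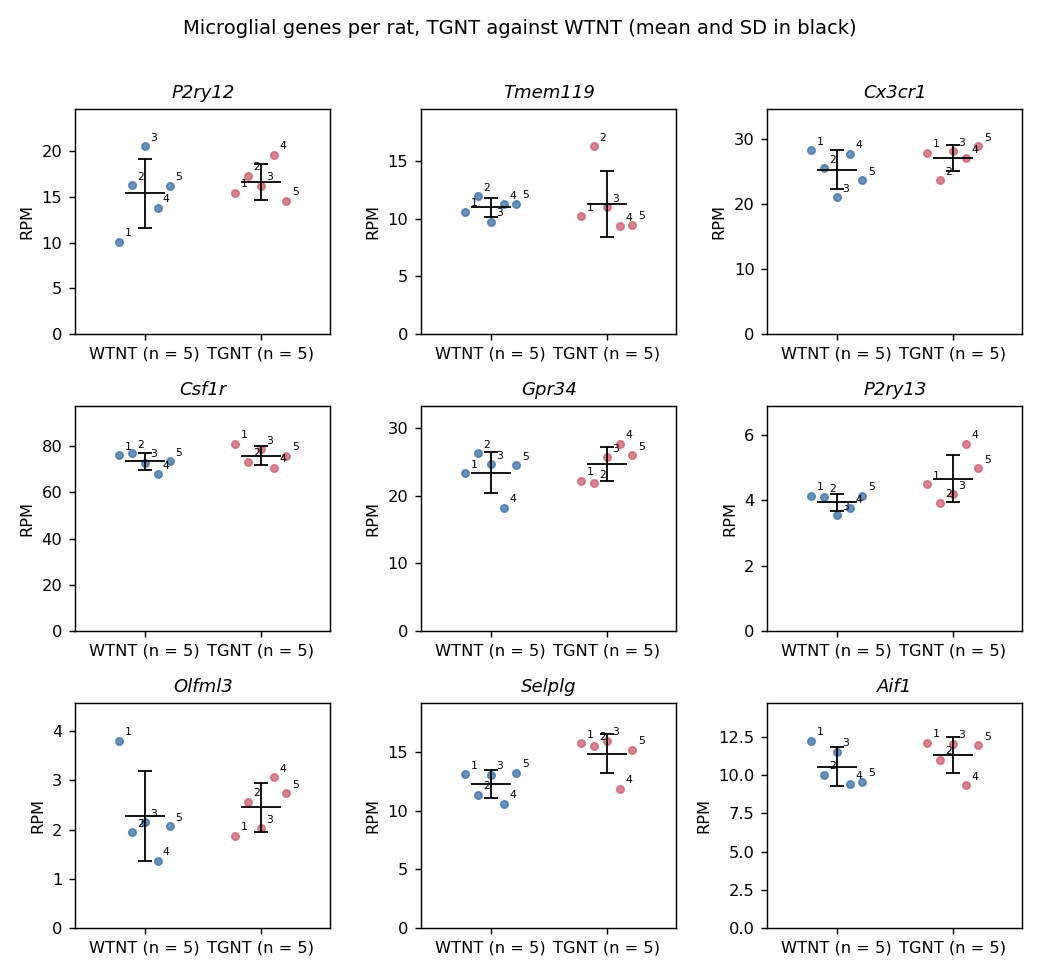
RPM (y axis, from 0) of each of the 9 genes in the 5 WTNT and 5 TGNT rats of the genotype comparison. Points are rats with their replicate numbers, and black bars are the mean and SD. Selplg runs from 10.58 to 13.22 RPM in WTNT and from 11.88 to 15.97 RPM in TGNT rats, and the groups overlap for every gene.

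P2ry12 and P2ry13 encode G protein-coupled receptors for ADP, through which microglial processes find injured cells. P2ry12 measured 10.11, 16.26, 20.54, 13.83 and 16.25 RPM in WTNT rats 1 to 5. The TGNT rats held 15.48, 17.34, 16.22, 19.62 and 14.58 RPM. The TGNT values all lay within the WTNT range, since WTNT rats 1 and 3 were the lowest and the highest of the 10. The log2 fold change of P2ry12 was 0.10 ± 0.153 (SE), with a 95% interval of -0.22 to 0.43 and an adjusted p of 1. Without WTNT 1 it was -0.01.

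P2ry13 measured 4.143, 4.091, 3.55, 3.755 and 4.142 RPM in WTNT rats. It measured 4.494, 3.921, 4.183, 5.739 and 4.984 RPM in TGNT rats. Of the TGNT rats, 4 lay above all WTNT rats and TGNT 2 lay within their range. The log2 fold change of P2ry13 was 0.25 ± 0.162 (adjusted p = 1), and the exact permutation test of RPM gave p = 0.0556 (two-sided; the smallest possible with 5 against 5 rats is 0.00794). Without TGNT 4, the highest rat, the log2 fold change of P2ry13 was 0.16.

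Gpr34, a receptor for lysophosphatidylserine of the same receptor family, measured 23.37, 26.28, 24.72, 18.26 and 24.54 RPM in WTNT rats. In TGNT rats it measured 22.22, 21.87, 25.73, 27.76 and 26.04 RPM. WTNT 4 was the lowest rat, and the remaining values of both genotypes intermingled. For Gpr34 the log2 fold change was 0.08 ± 0.106 and became -0.0037 without WTNT 4.

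Cx3cr1, the receptor for the neuronal chemokine fractalkine, measured 28.34, 25.57, 21.05, 27.82 and 23.74 RPM in WTNT rats. In TGNT rats it measured 27.97, 23.68, 28.14, 27.09 and 28.91 RPM. TGNT 5 was the highest of the 10 rats and WTNT 3 the lowest, and the groups overlapped broadly. Cx3cr1 had a log2 fold change of 0.11 ± 0.0953. Its estimated count was fractional in all 10 rats of each table, and the part of read assignment in its value was not tested. Without WTNT 3 its log2 fold change was 0.04.

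Csf1r, the tyrosine kinase receptor for CSF1 and IL-34, was the most precisely measured member. It held 76.07, 76.9, 72.9, 67.77 and 73.45 RPM in WTNT rats. The TGNT rats held 81.15, 73.29, 78.59, 70.73 and 75.88 RPM. WTNT 4 was lowest and TGNT 1 highest. Csf1r had a log2 fold change of 0.05 ± 0.0606, with a 95% interval for the fold from 0.949 to 1.14. It was 0.02 without WTNT 4.

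Tmem119 encodes a membrane protein used as a microglial marker. It measured 10.61, 11.97, 9.763, 11.27 and 11.31 RPM in WTNT rats. In TGNT rats it measured 10.24, 16.29, 11.03, 9.342 and 9.469 RPM. A single rat, TGNT 2, stood above all others, while TGNT rats 4 and 5 were the lowest of the 10. Tmem119 had a log2 fold change of 0.03 ± 0.153; it was -0.14 without TGNT 2 and -0.02 without WTNT 3.

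Selplg, the gene of the P-selectin ligand PSGL-1, gave the largest difference of the set. It measured 13.09, 11.35, 13.06, 10.58 and 13.22 RPM in WTNT rats. In TGNT rats it measured 15.73, 15.53, 15.97, 11.88 and 15.2 RPM. Of the TGNT rats, 4 lay above every WTNT rat, and TGNT 4 lay among the WTNT values. The fold of Selplg was 1.22 with a 95% interval from 1.03 to 1.44 (log2 fold change 0.28 ± 0.114), at an unadjusted p of 0.0250 and an adjusted p of 1 in edgeR's test. The exact permutation test of RPM gave p = 0.0317 (two-sided, n = 5 each). That log2 fold change stayed between 0.23 and 0.34 when each rat was left out, and its unadjusted p lay between 0.00669 and 0.0698.

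Olfml3, a secreted olfactomedin-domain protein, was sparsely counted, with 8 to 23 reads per rat. It measured 3.812, 1.943, 2.155, 1.366 and 2.071 RPM in WTNT rats. In TGNT rats it measured 1.873, 2.564, 2.028, 3.07 and 2.741 RPM. The WTNT rats 1 and 4 were the extremes, and the log2 fold change of Olfml3 was 0.13 ± 0.269. It was 0.36 without WTNT 1 and 0.0033 without WTNT 4, and 0.02 without TGNT 4.

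Aif1 encodes the actin-binding protein IBA1, the usual antigen for staining microglia. It measured 12.26, 10.02, 11.54, 9.388 and 9.56 RPM in WTNT rats. In TGNT rats it measured 12.11, 11.01, 12.04, 9.342 and 11.96 RPM. Each genotype spanned nearly the same range, and the log2 fold change of Aif1 was 0.11 ± 0.121. It was 0.06 without WTNT 4.

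Summed over the 9 genes, WTNT rats held 164.0 to 184.4 RPM and TGNT rats 184.6 to 193.9 RPM. The groups nearly met, at WTNT 2 (184.4 RPM) and TGNT 4 (184.6 RPM). How often sums of other genes separate like this was not examined. The sum weights each gene by its reads. The lowest sum was that of WTNT 4, which had the lowest value of its group for 5 of the 9 genes. In the other direction, 1 to 4 members were at their group's maximum in each TGNT rat, so no TGNT rat led throughout.

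The treatment comparison asked whether DZ/DIB moved the same transcripts in transgenic rats. The log2 fold changes lay closer to 0 than in the genotype comparison for all 9 genes, a difference that was not tested. By edgeR's quasi-likelihood test 0 of 9 were called, against 0.0% of all genes. None had an unadjusted p under 0.05, which 4.91% of all genes had, and DESeq2 called 0 members. Fitted levels were higher in TGTR rats for 3 members and lower for 6, while 50.1% of the 12029 genes averaging at least 10 counts had a higher level. The median log2 fold change was -0.03. Groups overlapped for all 9 members, and did not for 1.45% of genes.

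**Figure D2:**
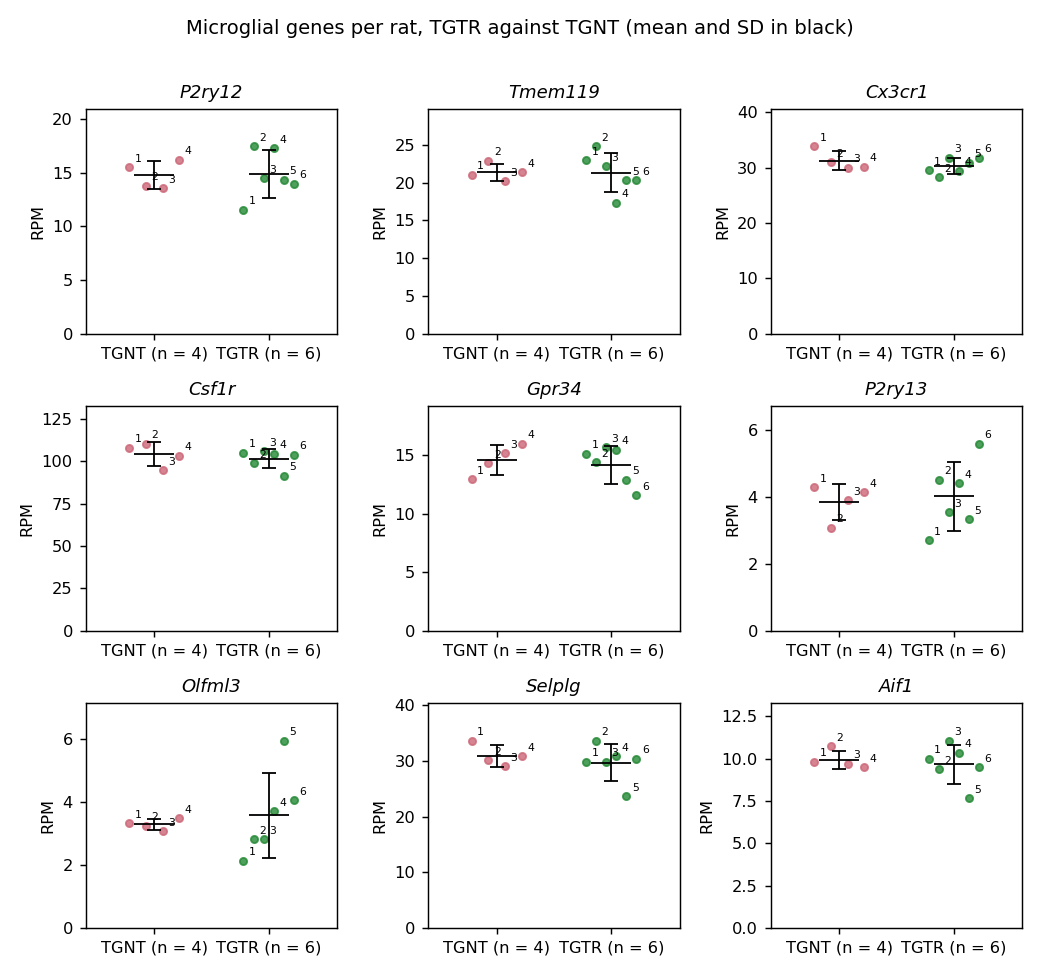
RPM (y axis, from 0) of each of the 9 genes in the 4 TGNT and 6 TGTR rats of the treatment comparison. Points are rats with their replicate numbers, and black bars are the mean and SD. TGTR 5 is the lowest rat for Csf1r (91.58 RPM), Selplg (23.63 RPM) and Aif1 (7.673 RPM) and the highest for Olfml3 (5.957 RPM).

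Among the purinergic receptors, P2ry12 measured 15.51, 13.79, 13.53 and 16.2 RPM in TGNT rats 1 to 4. It ran from 11.56 to 17.43 RPM over the 6 TGTR rats, with a mean of 14.8 RPM in both groups. The log2 fold change of P2ry12 was 0.01 ± 0.116, with a 95% interval of -0.24 to 0.26. P2ry13 measured 4.294, 3.084, 3.907 and 4.141 RPM in TGNT rats and 2.713 to 5.598 RPM in TGTR rats. Its log2 fold change was 0.06 ± 0.2. Gpr34 measured 12.97, 14.31, 15.18 and 16.01 RPM in TGNT rats and 11.6 to 15.67 RPM in TGTR rats, a log2 fold change of -0.04 ± 0.101.

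The receptors of chemokine and growth factor gave the narrowest intervals. Cx3cr1 measured 33.82, 31.01, 29.98 and 30.19 RPM in TGNT rats and 28.3 to 31.82 RPM in TGTR rats. The interval of its fold ran from 0.890 to 1.06. Csf1r measured 108.0, 110.5, 94.68 and 103.4 RPM in TGNT rats. In TGTR rats 1 to 6 it measured 105.0, 98.72, 105.8, 104.4, 91.58 and 103.8 RPM. The interval of the Csf1r fold ran from 0.898 to 1.06, so a change as large as 1.5-fold lay outside it for both receptors. Of all the members, only Olfml3 had an interval that reached 1.5-fold (0.748 to 1.56).

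Tmem119 measured 21.03, 22.87, 20.21 and 21.35 RPM in TGNT rats and 17.36 to 24.77 RPM in TGTR rats, a log2 fold change of -0.00041 ± 0.0921. Selplg measured 33.65, 30.16, 29.08 and 30.83 RPM in TGNT rats. In TGTR rats it measured 29.84, 33.59, 29.88, 30.86, 23.63 and 30.42 RPM. TGTR 5 stood below all others, and the log2 fold change of Selplg was -0.05 ± 0.0844 with that rat and 0.0049 without it.

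Aif1 measured 9.814, 10.71, 9.693 and 9.479 RPM in TGNT rats. In TGTR rats it measured 9.994, 9.385, 11.06, 10.34, 7.673 and 9.492 RPM, and TGTR 5 was again lowest. Its log2 fold change was -0.03 ± 0.106, and 0.02 without TGTR 5. Olfml3 measured 3.33, 3.255, 3.081 and 3.497 RPM in TGNT rats. In TGTR rats it measured 2.142, 2.822, 2.827, 3.709, 5.957 and 4.057 RPM, with TGTR 5 highest. For Olfml3 the log2 fold change was 0.11 ± 0.245, and -0.08 without TGTR 5.

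Across the 9 genes the unadjusted p of the treatment comparison lay between 0.473 and 0.996, with adjusted p of 1 (edgeR). Without TGTR 5, the rat with the choroid plexus transcripts, 5 of the 9 members were higher in TGTR rats in place of 3. The part of choroid plexus tissue in the values of that rat was not tested.

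**Figure D3:**
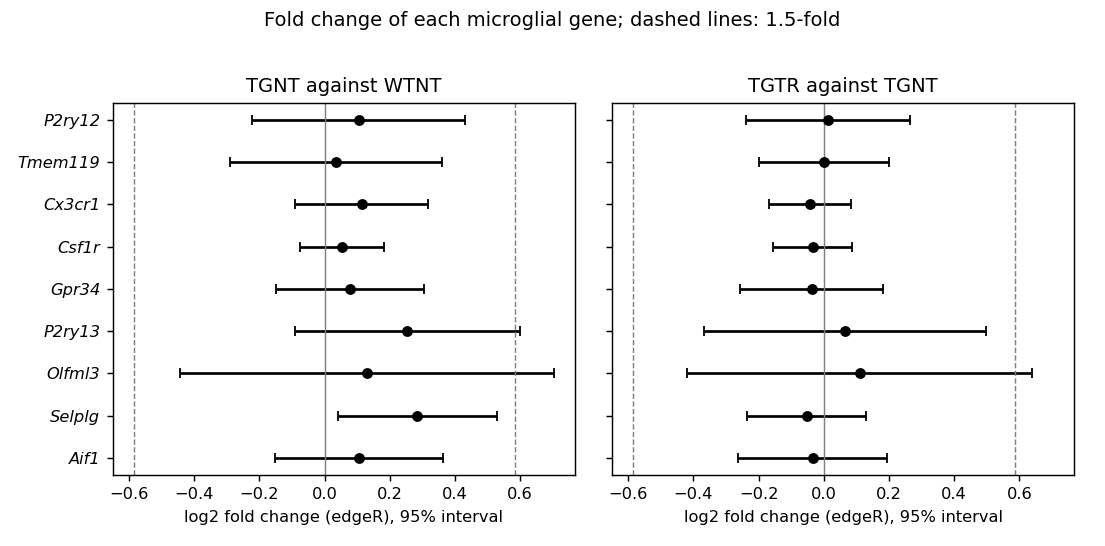
Log2 fold change (x axis) of each gene from edgeR, with its 95% interval, for TGNT against WTNT (left) and TGTR against TGNT (right). The interval of Selplg in the genotype comparison (0.04 to 0.53) is the only one that does not include 0; dashed lines mark 1.5-fold.

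Per-rat values were then compared between genes, with group means removed, over the 10 rats of each table. For 12 of 18 groups of values in the genotype comparison and 13 of 18 in the treatment comparison the spread between rats exceeded that of counting alone. Coefficients of variation over all groups ran from 4.72% for Cx3cr1 in TGTR rats, where counting alone gives 5.15%, to 40.4% for Olfml3 in WTNT rats. Among the 36 pairs of genes the median Pearson r was -0.0027 in the genotype comparison and 0.0646 in the treatment comparison. Of these pairs 18 and 20 were positive, beside 50.1% and 49.9% of all pairs of genes. An r of at least 0.5 was found for 11.1% of member pairs in both tables, beside 12.6% and 13.2% of all pairs.

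**Figure D4:**
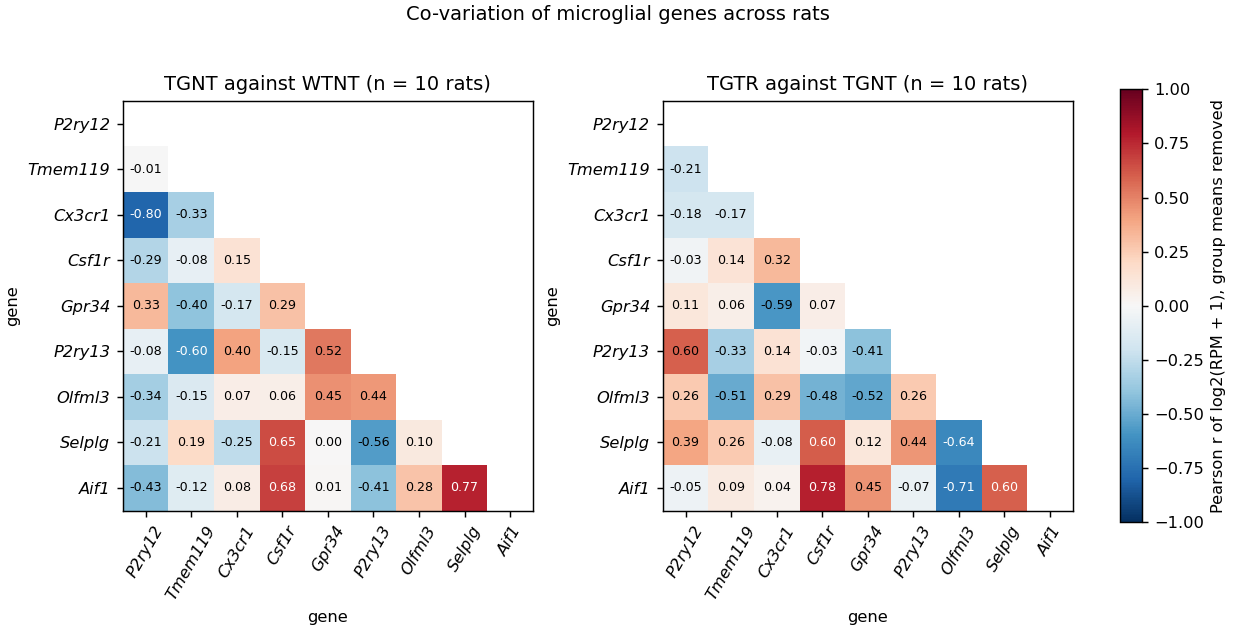
Pearson r between each pair of genes across the 10 rats of the genotype comparison (left) and of the treatment comparison (right), from log2(RPM + 1) with group means removed. Red is positive and blue negative; Csf1r, Selplg and Aif1 hold the 3 highest values in both panels.

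The 3 pairs among Csf1r, Selplg and Aif1 ranked highest in both tables, which share no rat. In the genotype comparison r was 0.772 for Selplg and Aif1, 0.684 for Csf1r and Aif1, and 0.649 for Csf1r and Selplg. In the treatment comparison the same pairs had r of 0.601, 0.780 and 0.605. The trio was singled out after its values were seen. Without the 2 rats farthest from the median of Csf1r, the r of Csf1r and Selplg turned to -0.220 in the genotype comparison and -0.592 in the treatment comparison.

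Csf1r and Aif1 in the treatment comparison had the smallest p (r = 0.780, rho = 0.891, exact permutation within groups, p = 0.00295 and 0.00179). Adjusted over 36 pairs these were 0.106 and 0.0646, and r was 0.677 without the 2 rats farthest from the median of Csf1r. Leaving out any 1 rat left r between 0.565 and 0.936 for that pair. Csf1r and Aif1 in the genotype comparison had r = 0.684 and rho = 0.552 (exact permutation p = 0.0431 and 0.128, adjusted 0.518 and 0.835). That value fell to 0.287 without the 2 farthest rats.

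Selplg and Aif1 in the genotype comparison had rho = 0.576 (exact permutation p = 0.0280 for r and 0.114 for rho, adjusted 0.504 and 0.835), and r was 0.36 without the 2 farthest rats. In the treatment comparison both pairs with Selplg rested on TGTR 5. Without it r was 0.118 for Csf1r and Selplg and -0.388 for Selplg and Aif1.

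The lowest pair of the genotype comparison was P2ry12 with Cx3cr1 (r = -0.796, rho = -0.867, exact permutation p = 0.0194 and 0.00701, adjusted 0.504 and 0.253). Without the 2 farthest rats r was -0.57, and in the treatment comparison it was -0.178. The lowest pair of the treatment comparison was Olfml3 with Aif1 (r = -0.710, rho = -0.358, exact permutation p = 0.0879 and 0.366, adjusted 0.766 and 0.860). It was -0.305 without the 2 farthest rats and 0.285 in the genotype comparison.

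Other pairs of receptor genes gave no shared pattern. P2ry12 and P2ry13, which neighbour each other, had r of -0.083 and 0.599 in the 2 tables (exact permutation p = 0.766 and 0.135). P2ry12 and Gpr34 had 0.326 and 0.113 (exact permutation p = 0.437 and 0.797). Gpr34 and P2ry13 had 0.524 and -0.413 (exact permutation p = 0.112 and 0.304), and Cx3cr1 and Csf1r had 0.147 and 0.324 (exact permutation p = 0.701 and 0.399). No pair of either table had an adjusted p under 0.05, while 3 pairs and 1 pair had an unadjusted p of r under it.

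The 10 genes whose pattern over rats was most like the mean of the 9 members were Lmo1, Rrn3, Hibch, Asb1, Epm2a, Baalc, Fads2, Ppp6r2, Chrna2 and Trim17. They were ranked among 11334 genes by the lower r of the 2 tables, which ran from 0.706 to 0.659 over 10 rats each. None is in a list of microglial genes. With the mean of the 9 members, the mean of the astrocyte list had r of 0.754 and 0.732 over 10 rats each (rho = 0.539 and 0.576). That of neuron genes had r of 0.280 and 0.677 (rho = 0.321 and 0.612). That of other microglia genes had r of 0.574 and -0.0322, and that of plaque-associated genes 0.145 and -0.599. Border macrophage and blood leucocyte genes had 0.191 and -0.679, and choroid plexus genes -0.633 in the treatment comparison. These values are descriptions, since genes of a rat share its library and scaling, and TGTR 5 is among the rats of the second table.

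Other genes of microglia and of the pathways around the members were read from fixed lists, none of which had a called gene in either comparison. Of other microglia and myeloid genes, 14 of 19 with enough counts were higher in TGNT rats (median log2 fold change 0.06) and 8 of 21 in TGTR rats (median -0.04). Fcgr1a, the high-affinity receptor for immunoglobulin G, measured 1.21 ± 0.613 RPM in WTNT and 2.04 ± 0.302 RPM in TGNT rats (log2 fold change 0.70 ± 0.325, exact permutation p = 0.0159, adjusted edgeR p = 1). Fcgr1a was sparsely counted, since 1 read stood for 0.101 to 0.171 RPM in those rats. Mertk, a receptor for engulfing dying cells that astrocytes also express, had lower means in both comparisons. It measured 36.8 ± 3.77 RPM in WTNT and 30.7 ± 1.58 RPM in TGNT rats (log2 fold change -0.26 ± 0.0826, exact permutation p = 0.0159, adjusted edgeR p = 1). In the separate rats of the treatment comparison it measured 41.6 ± 2.68 RPM in TGNT and 36.4 ± 3.18 RPM in TGTR rats (log2 fold change -0.19 ± 0.0708, exact permutation p = 0.0333, adjusted edgeR p = 0.964). The lowest member of that list under treatment was Tyrobp, an adaptor of myeloid receptors (-0.30 ± 0.161), and the highest was Cd37 (0.12 ± 0.256).

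Ligands and partners of the members with enough counts were spread about 0, with 7 of 11 higher in each comparison and medians of 0.01 and 0.01. Il34, a ligand of Csf1r, was the highest of them in TGNT against WTNT rats (log2 fold change 0.22 ± 0.13) and the lowest in TGTR against TGNT rats (-0.15 ± 0.0799). Cx3cl1, the ligand of Cx3cr1, was the highest under treatment at 0.14 ± 0.084, and Nt5e, which makes adenosine, the lowest between genotypes at -0.22 ± 0.246. None of these 11 had an unadjusted p under 0.05.

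Of microglial transcription factors and the TGF-beta pathway, on which microglial identity depends, 8 of 14 were higher in TGNT rats and 9 of 14 in TGTR rats, with medians of 0.01 and 0.02. Runx1 (-0.44 ± 0.361) and Nrros (0.15 ± 0.195) were the extremes between genotypes. Under treatment the unadjusted edgeR p was under 0.05 for Tgfbr2 (log2 fold change 0.29 ± 0.125), Smad2 (0.14 ± 0.0596) and Nrros (-0.28 ± 0.126), with adjusted p of 0.964, 0.964 and 0.990. Nrros presents latent TGF-beta on microglia. Lrrc32, which does so on other cells, was the highest of the list at 0.30 ± 0.299.

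Of 19 listed plaque-associated microglia genes, 18 were found, and 12 averaged at least 10 counts in each comparison. Of those with enough counts, 7 of 12 were higher in each comparison, with medians of 0.01 and 0.05. Between genotypes they ran from Axl at -0.15 ± 0.104 to Ctsz at 0.28 ± 0.171. Under treatment Lpl, a lipase also made by neurons, measured 93.7 ± 5.04 RPM in TGNT and 81.8 ± 4.30 RPM in TGTR rats (log2 fold change -0.19 ± 0.0512, exact permutation p = 0.00952, adjusted edgeR p = 0.913). Spp1, osteopontin, measured 0.756 ± 0.308 and 1.45 ± 0.302 RPM (log2 fold change 0.93 ± 0.301, exact permutation p = 0.00952, adjusted edgeR p = 0.964). Spp1 was sparsely counted, since 1 read stood for 0.0705 to 0.109 RPM in the TGTR rats. Trem2, a lipid-sensing receptor, was the lowest of the list at -0.28 ± 0.163. Border macrophage and blood leucocyte genes summed to 18.38 to 40.49 RPM over all rats. Of those with enough counts, 2 of 5 and 4 of 6 were higher, from Cd3e (-0.69 and -0.28) to Cd74 (0.16 and 0.24).

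Markers of the other cells that the dissected tissue could hold were read in the same way. Oligodendrocyte genes were lower in TGNT rats for 9 of 12 (median -0.18), with Mbp at -0.38 ± 0.171 and Mobp at -0.38 ± 0.174 (exact permutation p = 0.111 and 0.119, adjusted edgeR p = 1). In TGTR rats 11 of 12 were higher (median 0.13). Endothelial and pericyte genes were higher in TGTR rats for 11 of 11 (median 0.18), beside 50.1% of genes averaging at least 10 counts. Of these 11, 5 had an unadjusted edgeR p under 0.05, which 4.91% of all genes had. Among them were Abcc9 (0.45 ± 0.111) and Rgs5 (0.35 ± 0.104), both pericyte genes, with adjusted edgeR p of 0.858 and 0.957. The others were Kdr at 0.26, Tek at 0.21 and Flt1 at 0.18. The part of TGTR 5, the rat with the choroid plexus transcripts, in these values was not tested.

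Astrocyte genes were higher for 5 of 9 in TGNT and 0 of 9 in TGTR rats (medians 0.03 and -0.05), and neuron genes for 5 of 12 and 3 of 12 (medians -0.02 and -0.03). Red blood cell genes were higher for 3 of 4 and 4 of 4 (medians 0.04 and 0.96). Under treatment their sums overlapped, with 173.0 to 265.3 RPM in TGNT rats and 199.1 to 1344 RPM in TGTR rats. Choroid plexus genes had 2 measured between genotypes, 1 of them higher, and 9 of 9 higher in TGTR rats (median 3.27), where TGTR 5 held nearly all their reads. Most treated rats went the other way. Summed over these genes, TGTR rats 1 to 4 held 5.85, 3.67, 5.57 and 7.10 RPM, below the 7.967 to 18.5 RPM of the TGNT rats.

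**Figure D5:**
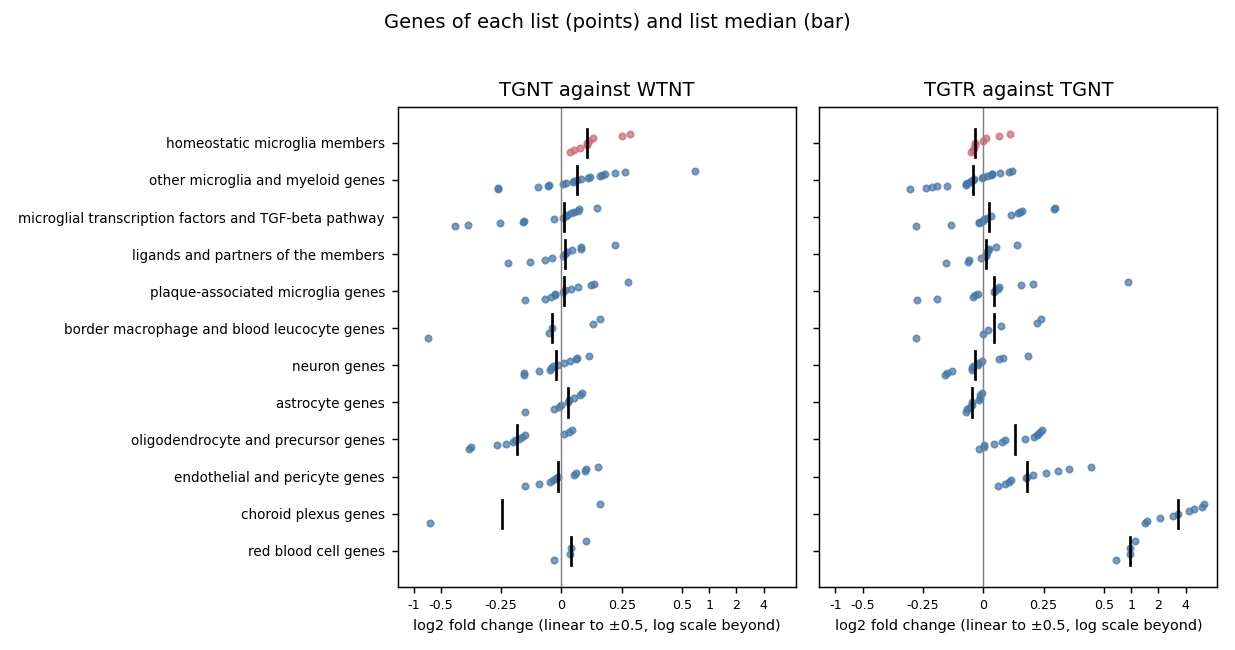
Log2 fold change (x axis, linear to ±0.5 and on a log scale beyond) of those genes of each list that averaged at least 10 counts, for TGNT against WTNT (left) and TGTR against TGNT (right). Points are genes and black bars list medians; the 9 homeostatic genes, in red, have medians of 0.11 and -0.03 and lie within the range of other microglia genes.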

How the data were processed

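Per the sample labels, stranded mRNA libraries were made from hippocampal RNA, 1 per rat. The submitters' processing notes name bcl2fastq 2.17, Bowtie2 2.1.0, RSEM 1.2.15, edgeR and the rn6 build, without roles. The authors deposited, for each comparison, estimated counts per gene symbol from RSEM, not normalized, and RPM, a signal scaled with TMM factors over the 10 rats of that table. The tables were normalized apart, so tests stay within a table. There were 0 columns without a sample.

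Estimated counts were rounded and fitted over all 17168 genes with edgeR 4.0.16 (R 4.3.3; TMM, quasi-likelihood, two-sided, Benjamini-Hochberg), and a gene was called at an adjusted p below 0.05 with a 1.5-fold difference. Exact permutation tests compared the RPM of single genes between groups. Correlations used log2(RPM + 1) with group means removed and all permutations within groups. The scripts were tested on simulated data. Alternatives were DESeq2 1.42.0, limma-trend 3.58.1, other normalizations and filters, a replicate block, and leaving out each rat.

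The members and lists were chosen with earlier results of these data known. From each list, genes named are those with an unadjusted p under 0.05 and the highest and lowest log2 fold change. Exceptions are the choroid plexus genes, given as sums, and the neuron, astrocyte and red blood cell lists, given as counts. Red blood cell genes also have sums under treatment. Replicates are separate rats. Intervals are those of the fold change between groups, estimated from the spread between these rats, and are not ranges of the rats.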

Additional observations from a re-analysis of the deposited data

Results flagged for a closer look

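Of 44 groups of values examined for a sample far from the others, 3 had one, where chance alone gives about 2.2. Tmem119 was 16.29 RPM in TGNT 2 of the genotype comparison, and 9.342 to 11.03 RPM in the other TGNT rats. Selplg was 11.88 RPM in TGNT 4, below the 15.2 to 15.97 RPM of the other TGNT rats of that comparison. Without TGNT 4 the log2 fold change of Selplg between genotypes was 0.34 in place of 0.28. The sum of the 9 genes was 210.6 RPM in TGTR 5, against 228.9 to 237.2 RPM in the other TGTR rats; TGTR 5 is the rat with 2906 RPM of choroid plexus transcripts, and the part of these in its sum was not tested.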

How the results depend on the processing

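No alternative called a member in either comparison. In the genotype comparison 8 to 9 members were higher under every alternative, with a median log2 fold change of 0.0614 to 0.151 when a rat was left out and 0.0954 to 0.115 otherwise. Of single-gene values, 86 of 90 kept their direction when a rat was left out and 80 of 80 otherwise. P2ry12 (-0.013 to 0.219), Tmem119 (-0.139 to 0.082) and Gpr34 (-0.0037 to 0.125) changed sign when a rat was left out. The others ran from 0.041 to 0.151 for Cx3cr1, 0.0195 to 0.071 for Csf1r, 0.158 to 0.294 for P2ry13, 0.0033 to 0.362 for Olfml3, 0.233 to 0.344 for Selplg and 0.0616 to 0.155 for Aif1.

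In the treatment comparison directions were less stable, and 74 of 90 and 70 of 81 values kept theirs. With library size alone as scaling, which shifted the median gene by 0.0375, 6 members were higher, and Tmem119 (0.037), Csf1r (0.0021) and Aif1 (0.00032) changed sign. P2ry12 was -0.0010 and -0.0016 by limma-trend with 1 or 0.1 RPM added. Left-out rats gave 2 to 5 members higher, with 5 without TGTR 5. They gave ranges of -0.041 to 0.073 for P2ry12, -0.050 to 0.050 for Tmem119, -0.089 to 0.012 for Gpr34, -0.054 to 0.155 for P2ry13, -0.081 to 0.222 for Olfml3, -0.091 to 0.0049 for Selplg and -0.076 to 0.022 for Aif1. The cause was not tested.

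Deviations of same-numbered rats from their group means had r of -0.21 to 0.34 between genotypes and -0.58 to 0.14 under treatment. Those of differently numbered rats had r of -0.40 to 0.32 and -0.34 to 0.39. Whether the numbers pair the rats was not tested. With the replicate number as a block, all 9 members were higher in TGNT rats and 5 in TGTR rats. In the treatment comparison numbers 5 and 6 occur only in TGTR rats. Under that block TGTR 5 and TGTR 6 therefore add nothing to the group difference. In that fit the treatment values of Tmem119 (0.025), Gpr34 (0.059), P2ry13 (-0.030), Olfml3 (-0.21), Selplg (0.0087) and Aif1 (0.041) changed sign.

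Among the members, depth limits P2ry13 and Olfml3 most. The median correlation between pairs ran from -0.107 to 0.105 (genotype) and 0.0135 to 0.0926 (treatment) with a rat left out.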

Other observations

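The untreated transgenic rats of the 2 tables carry the same genotype but are separate animals whose values were normalized apart, so their levels are set side by side without a test. Selplg was 14.9 ± 1.69 RPM (n = 5) in the genotype comparison and 30.9 ± 1.95 RPM (n = 4) in the treatment comparison, and Tmem119, its neighbour on the chromosome, was 11.3 ± 2.88 and 21.4 ± 1.11 RPM. Gpr34 went the other way, with 24.7 ± 2.57 and 14.6 ± 1.30 RPM. Ratios of the second to the first table were 2.08 for Selplg, 1.90 for Tmem119 and 0.591 for Gpr34. The rats of the 2 tables did not overlap for 6 of the 9 genes, beside 55.7% of 11342 genes, and 3 of 9 differed by at least 1.5-fold, beside 33.9%, with a median ratio of 1.01 over all genes. The gaps between tables for Selplg, Tmem119 and Gpr34 are larger than any difference between genotypes or treatments in the 9 genes.

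With P2ry12 and P2ry13, Tmem119 and Selplg form the other neighbouring pair. Within the tables, r between Tmem119 and Selplg across rats was 0.188 and 0.261 (exact permutation p = 0.598 and 0.547).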
